A study of Mus musculus with 5 samples.

Results

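The genes described are 9 members of the TALE homeobox family, Meis1, Meis2, Meis3, Pbx2, Pbx3, Pbx4, Pknox1, Tgif1 and Tgif2. They were chosen by symbol through the gene identifiers of the count table, in which all 9 were found among 52550 genes. TALE proteins carry a homeodomain with an extended loop. PBX proteins bind DNA next to Hox proteins and sharpen the choice of site, while MEIS and PKNOX proteins pair with PBX and hold it in the nucleus. TGIF proteins recognise a similar DNA core but recruit corepressors. In blood, Meis1 is known for its high level in stem cells and for its cooperation with Hoxa9 in leukaemia.

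RNA was measured by QuantSeq, a 3′ end sequencing method, in Lin-cKit+Sca1- (KL) myeloid progenitors sorted from the bone marrow of male mice 20 weeks after tamoxifen. All mice carried scl-Cre-ERT, a Cre recombinase switched on by tamoxifen and driven in stem cells by the Scl enhancer, and were dosed with 1 mg of tamoxifen on each of 5 days at an age of 3 to 6 months. BcorΔE9-10 mice (scl-Cre-ERT +; Bcorfl/y, n = 3 libraries) lose exons 9 and 10 of Bcor on recombination, whereas BcorWT mice (scl-Cre-ERT +; Bcorwt/y, n = 2 libraries) keep an intact gene. Only progenitors that descend from a recombined stem cell lack the exons. Libraries held 5998924 to 8303999 counts. Kit and Mpo, genes that mark KL cells, had at least 128 and 26303 counts in every library, and Ly6a, which encodes Sca1, had at most 8. Levels are CPM, counts per 1e+06 counts of the library after TMM scaling, and a gene was called when its limma adjusted p-value was under 0.05.

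Whether the TALE genes differed between the genotypes was examined first. Pbx3 and Tgif2 were lower in BcorΔE9-10 KL cells, at 30.3% and 41.4% of the BcorWT level, and no member was higher. Pbx3 lost its call without BcorΔE9-10 library 3 alone (limma adjusted p = 0.0581), whereas Tgif2 lost it under 10 settings (adjusted p-values up to 0.169) and shares its transcript end with a gene on the other strand. Both genes are on the study's own list from these libraries, so their calls are not independent evidence. Of the 9 members, 7 passed the filter on low counts, and 2 of these 7 were called. Of all 11766 genes tested, 10.1% were called, 4.09% as lower and 6.02% as higher. The median log2 fold change of the 7 members was -0.07, against 0.0043 over all genes tested. Meis1 stood at 4.71 ± 1.5 CPM (SD, n = 3) in BcorΔE9-10 and 3.04 ± 0.114 CPM (SD, n = 2) in BcorWT and was not called. In bulk samples, fewer cells of a type and less RNA per cell cannot be told apart.

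**Figure D1:**
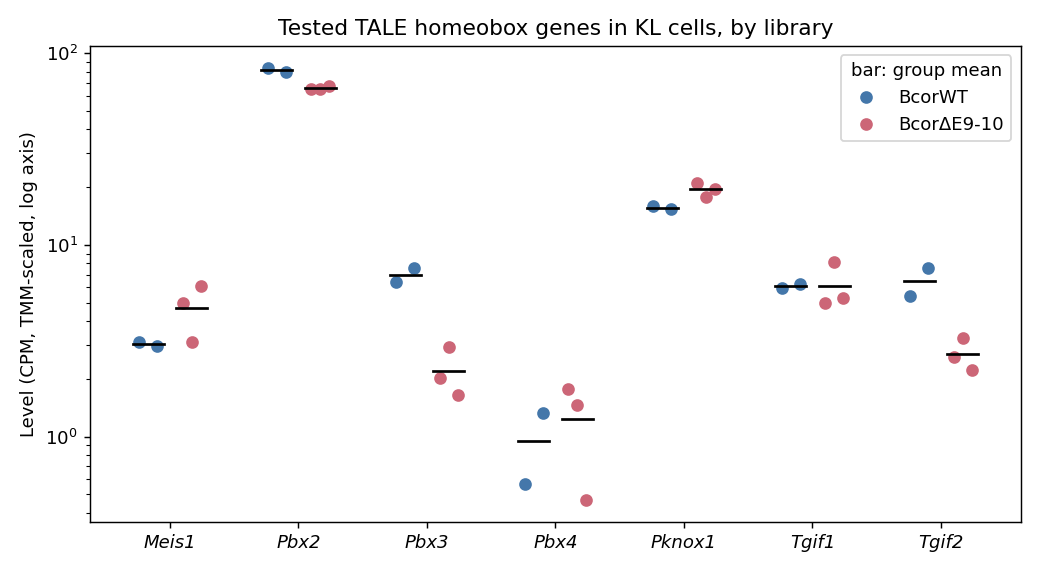
Level of the 7 tested TALE genes in each library, in CPM on a log axis. Points are libraries (BcorWT n = 2, BcorΔE9-10 n = 3) and black bars are group means. The points of the groups are separate for Pbx2, Pbx3, Pknox1 and Tgif2 and overlap for Meis1, Pbx4 and Tgif1.

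A count in this method stands for 1 transcript end whatever the length of the transcript, so levels of different genes were set side by side in CPM. In BcorWT cells Pbx2 was the highest at 82.1 ± 2.76 CPM (SD, n = 2), followed by Pknox1 at 15.7 ± 0.350 CPM. Pbx3, Tgif2 and Tgif1 came next at 6.97, 6.48 and 6.09 CPM, and the ranges of these neighbours overlapped. Meis1 and Pbx4 were the lowest with counts, at 3.04 and 0.951 CPM. In BcorΔE9-10 cells Pbx2 and Pknox1 kept the first places, with Tgif1 at 6.13 CPM, Meis1 at 4.71, Tgif2 at 2.69, Pbx3 at 2.19 and Pbx4 at 1.24. In this order each gene from Tgif1 to Pbx4 overlapped the next in range. Per kilobase of exon Pbx2 and Pknox1 were also first and second in both groups. The next places in BcorWT then went to Tgif2 at 1.69, Pbx3 at 1.14 and Tgif1 at 1.08 CPM per kilobase, with Pbx4 at 0.429 above Meis1 at 0.289.

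PBX genes encode the direct partners of Hox proteins. Pbx3 (ENSMUSG00000038718, mm10 chr2:34171457-34373142, minus strand) had 45 and 51 counts in the BcorWT libraries and 17, 18 and 14 in the BcorΔE9-10 libraries. Both BcorWT libraries were above every BcorΔE9-10 library. BcorWT cells held 6.97 ± 0.825 CPM (SD, n = 2) and BcorΔE9-10 cells 2.19 ± 0.670 CPM (SD, n = 3). On the log2 scale the difference was -1.72 (SE 0.393, 95% interval -2.56 to -0.89, limma adjusted p = 0.0109). No exon of another gene overlaps Pbx3, and none of the 30-base words in the last 300 bases of its transcript occurs in an annotated transcript of another gene. Those bases have a GC content of 33.0%, and with a GC trend removed from each library the log2 fold change was -1.92 (limma adjusted p = 0.00525). Without BcorΔE9-10 library 3 it was -1.55 and was not called (limma adjusted p = 0.0581). Pbx3 was called in the other fits, including each fit without a BcorWT library.

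Pbx2 (ENSMUSG00000034673, chr17:34591266-34597400, plus strand), the most abundant member, had 592 and 541 counts in BcorWT and 550, 399 and 577 in BcorΔE9-10. On the CPM scale the groups did not overlap, with 80.2 to 84.1 in BcorWT and 65.0 to 67.4 in BcorΔE9-10. The log2 fold change was -0.32 (SE 0.126, limma adjusted p = 0.123) and was not called. Pbx2 shares 227 exon bases at its start with Gpsm3, a gene on the same strand that had 950 and 877 counts in BcorWT and 836, 649 and 912 in BcorΔE9-10. Pbx4 (ENSMUSG00000031860, chr8:69832491-69872292, plus strand) had 4 and 9 counts in BcorWT and 15, 9 and 4 in BcorΔE9-10. Its log2 fold change of 0.24 had a 95% interval from -1.48 to 1.95 (limma adjusted p = 0.894), which includes a change of either sign.

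Of the summed counts of the 9 members, Pbx3 made up 5.26% (95% Wilson interval 3.96 to 6.97) and 6.23% (4.77 to 8.10) in the BcorWT libraries. In the BcorΔE9-10 libraries the share was 1.96% (1.23 to 3.12), 2.88% (1.83 to 4.51) and 1.59% (0.947 to 2.64). The intervals of the BcorΔE9-10 libraries 1 and 3 lay below both BcorWT intervals, and that of library 2 overlapped the first. The exact two-sided permutation p-value for this share was 0.2, the smallest that 3 against 2 libraries can give. No molecular identifiers were counted, so these intervals hold for counting error alone.

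MEIS and PKNOX proteins bind PBX. Meis1 (ENSMUSG00000020160, chr11:18879817-19018985, minus strand) had 22 and 20 counts in the BcorWT libraries and 42, 19 and 52 in the BcorΔE9-10 libraries. BcorΔE9-10 libraries 1 and 3 were above both BcorWT libraries, while library 2, at 3.10 CPM, lay within the BcorWT range of 2.96 to 3.12. The log2 fold change was 0.62 (SE 0.428, 95% interval -0.29 to 1.53, limma adjusted p = 0.386). This interval includes no change and a rise to 288% of the BcorWT level. Meis1 was called under none of the settings tried, with adjusted p-values from 0.261 to 0.821 over the limma, edgeR and DESeq2 fits.

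Meis2 and Meis3, relatives of Meis1 known from other tissues, did not pass the filter. Meis2 had 0 counts in all 5 libraries. For a library with 0 counts the 95% upper bound on the expected count is about 3, or 0.351 to 0.490 CPM, if only counting error is present. Meis3 had 4 counts in BcorΔE9-10 library 3 and 0 in the other 4 libraries (exact two-sided permutation p = 1). Pknox1 (ENSMUSG00000006705, chr17:31564749-31607684, plus strand), which encodes a MEIS-related partner of PBX also called Prep1, had 112 and 104 counts in BcorWT and 178, 109 and 168 in BcorΔE9-10. It stood at 15.7 ± 0.350 CPM (SD, n = 2) and 19.5 ± 1.63 CPM (SD, n = 3), with every BcorΔE9-10 library above both BcorWT libraries. It was not called (log2 difference 0.32, SE 0.2, limma adjusted p = 0.335). Groups that do not overlap were found for 4 of the 7 tested members, 3 lower and 1 higher. Over all genes tested the share was 42.8%, with 20.3% lower and 22.6% higher.

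TGIF proteins are repressors that also bind Smads. Tgif2 (ENSMUSG00000062175, chr2:156840007-156855570, plus strand) had 38 and 51 counts in BcorWT and 22, 20 and 19 in BcorΔE9-10, and the groups did not overlap. BcorWT cells held 6.48 ± 1.53 CPM (SD, n = 2) and BcorΔE9-10 cells 2.69 ± 0.528 CPM (SD, n = 3). The log2 difference was -1.27 (SE 0.376, 95% interval -2.07 to -0.47, limma adjusted p = 0.0419). The call was near the threshold. It was lost under the DESeq2 test, with total counts, without a filter, with counts drawn down, with the replicate block, with the block and GC correction together, and when any 1 of the BcorΔE9-10 libraries or BcorWT library 2 was left out. Without BcorWT library 2 the log2 difference was -1.03 (limma adjusted p = 0.169).

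Tgif2 shares 2171 exon bases with 5430405H02Rik, a noncoding gene on the other strand that covers the whole of the last 300 bases of Tgif2. Reads from the genes cannot be told apart unless strand was used in counting, which is not given in the sources used here. 5430405H02Rik had 42 and 29 counts in BcorWT and 13, 24 and 26 in BcorΔE9-10 (log2 fold change -0.99, SE 0.429, limma adjusted p = 0.160). Summing both genes, which was decided once the values were known, gave 80 and 80 counts in BcorWT and 35, 44 and 45 in BcorΔE9-10 (log2 fold change -1.14, SE 0.284, limma adjusted p = 0.0181). How reads lying in both genes were counted is not given either, and if they were left out this sum lacks them. Tgif1 (ENSMUSG00000047407, chr17:70844205-70853546, minus strand), the relative of Tgif2, had 42 and 42 counts in BcorWT and 42, 50 and 45 in BcorΔE9-10. Its log2 fold change was -0.072 (SE 0.324, 95% interval -0.76 to 0.61, limma adjusted p = 0.920), with a sign that changed under scaling by total counts, with the replicate block, with counts drawn down and without BcorΔE9-10 library 1.

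**Figure D2:**
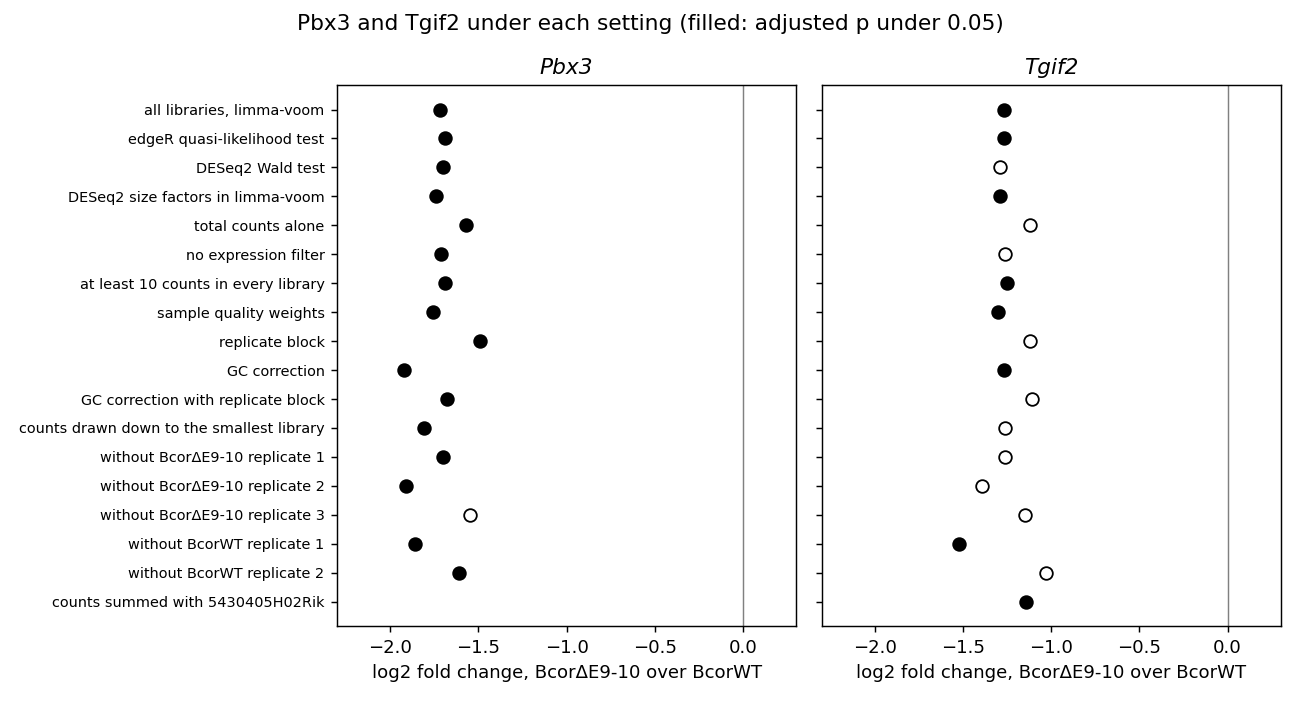
Log2 fold change of Pbx3 and Tgif2 (BcorΔE9-10 over BcorWT) under each setting of the analysis, with filled points where the adjusted p-value was under 0.05. Both genes were negative under every setting shown. Pbx3 was called in all but the fit without BcorΔE9-10 library 3, and Tgif2 lost its call under 10 settings.

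Bcor belongs to a Polycomb complex that is brought to CpG-rich DNA by its Kdm2b subunit, so the 250 bases before RefSeq transcript starts of the members were read for CpG content. In BcorWT KL cells the study found CpG islands not significantly enriched at promoter clusters rich in H2AK119ub, the histone mark laid by such complexes. The chromatin data of the study were not used here. RefSeq windows (GRCm38.p6, the assembly of mm10) were found for 7 of the 9 members and not for Pbx3 and Pknox1. They end at RefSeq starts, which can differ from the gene start given above. The Pbx2 start lay 993 bases and the Meis2 start 1220 bases downstream of the gene start, so that both windows lie within the annotated gene, as do that of Meis3 and 4 of the 5 of Tgif1, and the starts of Tgif2 and Meis1 lay 0 and 16 bases from it. Shown, with CpG in capitals, are Tgif2 (chr2:156839757-156840006, plus strand), the called member with a window, Meis1 (chr11:19018970-19019219, minus strand) and Pbx2 (chr17:34592009-34592258, plus strand), the most abundant member.
Tgif2: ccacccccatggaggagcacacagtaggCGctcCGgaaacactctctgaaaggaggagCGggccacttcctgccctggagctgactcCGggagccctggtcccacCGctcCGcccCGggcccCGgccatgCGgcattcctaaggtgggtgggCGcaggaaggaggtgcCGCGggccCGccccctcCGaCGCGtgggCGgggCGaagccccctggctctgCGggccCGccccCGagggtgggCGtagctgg
Meis1: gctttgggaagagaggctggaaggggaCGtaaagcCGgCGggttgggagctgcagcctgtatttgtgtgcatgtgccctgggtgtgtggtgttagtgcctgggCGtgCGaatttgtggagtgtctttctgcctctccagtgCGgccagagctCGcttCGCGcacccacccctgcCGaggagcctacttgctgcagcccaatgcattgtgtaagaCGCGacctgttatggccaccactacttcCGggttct
Pbx2: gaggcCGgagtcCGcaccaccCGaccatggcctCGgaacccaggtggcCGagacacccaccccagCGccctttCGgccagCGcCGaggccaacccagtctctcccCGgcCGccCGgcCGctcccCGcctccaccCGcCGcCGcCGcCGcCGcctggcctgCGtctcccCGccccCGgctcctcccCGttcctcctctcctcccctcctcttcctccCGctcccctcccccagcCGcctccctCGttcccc

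The Tgif2 window held 22 CpG, the Meis1 window 13 and the Pbx2 window 27. Of 32851 windows in the table, 14.8%, 31.5% and 8.56% held at least as many, and the median window held 6. The other windows of members held 12 (Meis3), 12 (Pbx4), 7 (Meis2) and, over 5 starts of Tgif1, 2 to 18 CpG. The MEIS and TGIF core TGACAG, searched on both strands, was in none of the 11 windows of members and in 15.9% of all windows. The PBX-Hox core TGATNNAT was in 1 window of Tgif1 and in 7.68% of all windows. These counts describe the letters of the windows and were not tested.

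Hox genes were then set beside the TALE genes. Of 39 Hox genes, 24 had no count in any library and 5 passed the filter, of which Hoxa5, Hoxa7 and Hoxa9 were higher in BcorΔE9-10 and Hoxb3 and Hoxb4 were not called. Over all genes tested 6.02% were called higher. The median log2 fold change of the 5 was 1.89. Hoxa5, with 2 and 9 counts in BcorWT, and Hoxb3 passed the filter only through the BcorΔE9-10 libraries. The filter thus favours genes that are higher there, and the median does not measure the Hox genes as a whole. Hoxa9, which encodes the classical partner of Meis1, had 16 and 15 counts in BcorWT and 239, 128 and 281 in BcorΔE9-10 (log2 fold change 3.56, SE 0.469, limma adjusted p = 0.000192). Hoxb3 had 8 and 7 counts in BcorWT and 27, 16 and 16 in BcorΔE9-10, without overlap (1.14, SE 0.624, limma adjusted p = 0.272). Hoxb4 had 36 and 37 counts in BcorWT and 44, 31 and 37 in BcorΔE9-10 (-0.13, limma adjusted p = 0.844). Hoxa5 (log2 difference 2.87, limma adjusted p = 0.0399) lost its call with sample weights, with the replicate block, with or without GC correction, and without BcorΔE9-10 library 3 or either BcorWT library. Its log2 difference was 1.86 without BcorWT library 1 and 3.85 without BcorWT library 2 (limma adjusted p = 0.268 and 0.137). Without BcorWT library 1, of the Hox genes only Hoxa9 was called. Since the study names Hoxa5, Hoxa7 and Hoxa9 from these libraries, their direction is not independent evidence.

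**Figure D3:**
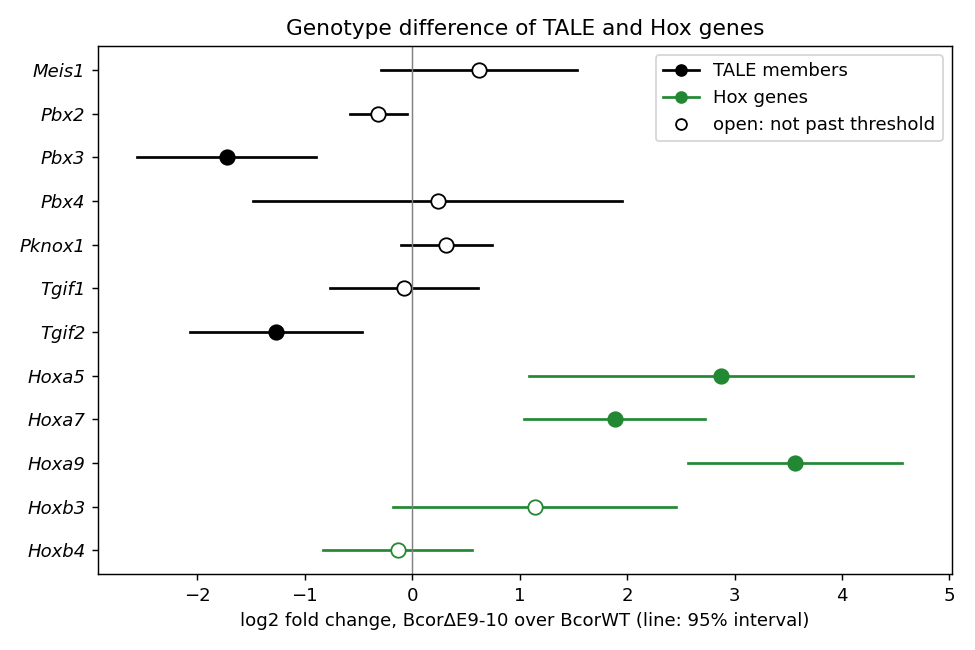
Log2 fold change of BcorΔE9-10 (n = 3) over BcorWT (n = 2) with 95% intervals from the limma fit, for the 7 tested TALE members and the 5 tested Hox genes. Filled points passed the adjusted threshold. Hoxa5, Hoxa7 and Hoxa9 lie above 0, Pbx3 and Tgif2 below, and the interval of Pbx2, which was not called, also lies below 0. The intervals of Meis1, Pbx4, Pknox1 and Tgif1 include 0.

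The ratio of Hoxa9 to TALE counts was taken within each library, a value that does not depend on scaling. BcorWT libraries held 0.727 and 0.750 Hoxa9 counts per Meis1 count, and BcorΔE9-10 libraries held 5.69, 6.74 and 5.4. Per Pbx3 count they held 0.356 and 0.294 in BcorWT and 14.1, 7.11 and 20.1 in BcorΔE9-10. Per Pbx2 count the values were 0.0270 and 0.0277 in BcorWT and 0.435, 0.321 and 0.487 in BcorΔE9-10, so that Pbx2 remained the more abundant transcript end in every library. The exact two-sided permutation p-value of each of the 6 ratios computed was 0.2, the smallest this design allows. Nothing rests on these tests, since Hoxa9 in the numerator was itself higher and was named by the study from these libraries. Per Tgif2 count the libraries held 0.421 and 0.294 Hoxa9 counts in BcorWT and 10.9, 6.40 and 14.8 in BcorΔE9-10, and per Pknox1 count 0.143 and 0.144 against 1.34, 1.17 and 1.67.

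**Figure D4:**
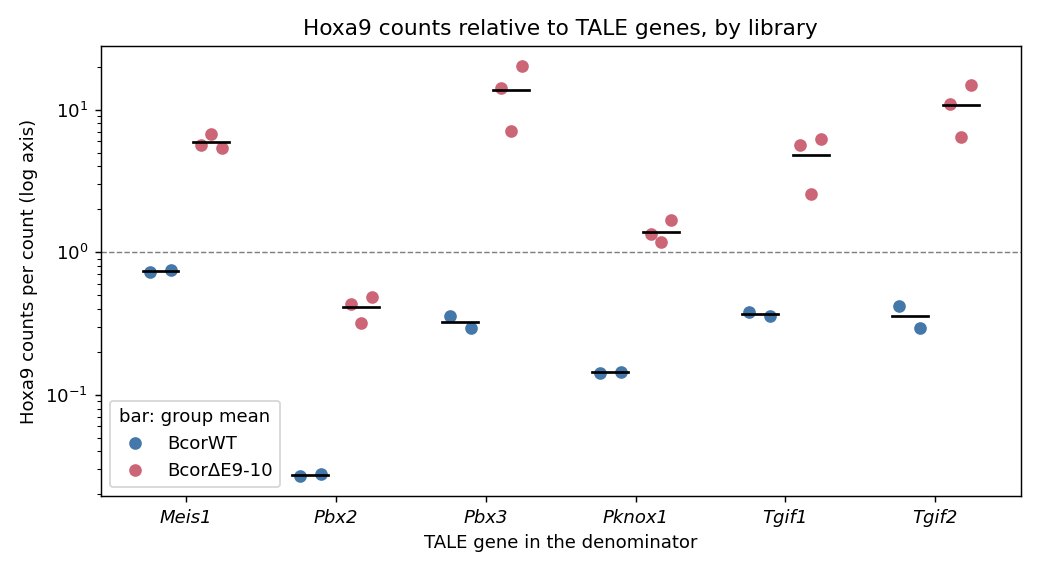
Counts of Hoxa9 per count of Meis1, Pbx2, Pbx3, Pknox1, Tgif1 and Tgif2, by library, on a log axis with a dashed line at 1. Points are libraries (BcorWT n = 2, BcorΔE9-10 n = 3) and bars are group means. For Meis1 the BcorWT points are at 0.727 and 0.750 and the BcorΔE9-10 points lie between 5.4 and 6.74.

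Among other TALE genes, Irx1 to Irx6, Mkx, Tgif2lx1 and Tgif2lx2 had no count in any library. Pknox2, a relative of Pknox1, had 11 and 6 counts in BcorWT and 3 in each BcorΔE9-10 library and did not pass the filter. Of 17 cofactors and corepressors of TALE proteins, all tested, 1 was higher, 1 lower and 15 were not called, with a median log2 fold change of 0.09. With 10.1% of all genes tested called, 2 calls among 17 are near the general share. Pbxip1, which encodes a protein that binds PBX and hinders its binding to DNA, was lower, at 191 ± 31.5 CPM (SD, n = 2) in BcorWT and 111 ± 14.7 CPM (SD, n = 3) in BcorΔE9-10 (log2 difference -0.77, SE 0.137, limma adjusted p = 0.00218). Smad3, a TGF-beta signal transducer that TGIF proteins bind, was higher (log2 difference 0.72, SE 0.204, limma adjusted p = 0.0330), a call that was lost when any 1 library was left out.

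Genes linked to Hoxa9 and Meis1 in leukaemia were also listed, and 16 of 18 were tested. Myb and Lmo2, transcription regulators of early progenitors, were higher, with log2 fold changes of 0.41 (SE 0.106, limma adjusted p = 0.0201) and 0.91 (SE 0.155, limma adjusted p = 0.00163). Ccnd3, which encodes cyclin D3, was lower (-0.57, SE 0.0936, limma adjusted p = 0.00117). The other 13 were not called, and the median of the 16 was 0.31. Over all genes tested 10.1% were called. Myb was not called without BcorΔE9-10 library 1 or 3 or without BcorWT library 2 (limma adjusted p = 0.0887, 0.0638 and 0.0887). Lmo2, like Pbxip1 and Smad3 above, is a gene that the study lists from these libraries.

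Genes with the pattern nearest to Pbx3 and Tgif2 were sought among the 6812 genes whose mean log2 CPM reached 3, by the Euclidean distance of mean-centred log2 CPM over the 5 libraries. For Pbx3 they were Zmpste24, Tmem141 and Klhdc4, at distances of 0.652, 0.660 and 0.736. For Tgif2 they were Tmem141, Rps4l and Dmkn, at 0.307, 0.371 and 0.425. Being chosen for their likeness to genes called lower, these 5 genes had to be lower in BcorΔE9-10, and their log2 fold changes were -1.31 for Zmpste24, -1.21 for Tmem141, -1.24 for Klhdc4, -1.0 for Rps4l and -1.11 for Dmkn.

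Markers of other cell types moved with the genotype. By the methods of the study, lineage depletion and a lineage-negative gate meant to remove mature cells preceded the collection of KL cells. Mature neutrophil genes were nevertheless abundant in every library, with S100a8 at 68100 to 117000 CPM and Camp at 18400 to 26900 CPM, beside 4290 to 5530 CPM for Mpo. Of 10 mature neutrophil markers 6 (Ly6g, Ltf, Ngp, S100a8, S100a9 and Mmp9) were lower and none higher. Over all genes tested 4.09% were called lower and 6.02% higher. The summed level of the 10, most of it S100a8 and S100a9, was 148000 to 172000 CPM in BcorΔE9-10 and 214000 to 226000 CPM in BcorWT. The BcorWT libraries differed for Mmp8 (804 and 277 CPM), Retnlg (830 and 260), Mmp9 (1400 and 661) and Ly6g (570 and 321). Both were above every BcorΔE9-10 library for Ltf, Ngp, S100a8 and S100a9. Camp was not called and went the other way (log2 fold change 0.25, limma adjusted p = 0.114). Of 9 basophil, mast cell and eosinophil markers 6 (Cpa3, Mcpt8, Prss34, Epx, Prg2 and Ear1) were lower and 1, Gata2, was higher, and their sum was 427 to 597 CPM against 1030 to 1320 CPM. The part of these markers in the lower Pbx3 and Tgif2 was not tested. Of 11 erythroid markers 7 were tested, with Car1 higher, and the sum was 128 to 324 CPM in BcorΔE9-10 and 70.6 to 117 CPM in BcorWT.

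Of 8 stem cell markers only Hlf passed the filter. It had 38 and 46 counts in BcorWT and 59, 69 and 52 in BcorΔE9-10 and was not called. Fgd5 had no count, and the sum of the 8 was 9.10 to 14.4 CPM in BcorΔE9-10 and 7.81 to 8.74 CPM in BcorWT. Of 10 megakaryocyte markers 7 were tested and none called, with sums of 47.0 to 73.8 and 28.7 to 48.1 CPM. Of 10 lymphoid markers 5 were tested and none called, with sums of 16.4 to 27.3 and 8.0 to 18.2 CPM. None of 6 stromal and endothelial markers passed, with sums of at most 4.69 CPM and Col3a1 and Lepr at 0. Of 9 KL progenitor markers only Kit was called, and it was higher, with 18.9 ± 0.977 CPM (SD, n = 2) in BcorWT and 51.0 ± 2.14 CPM (SD, n = 3) in BcorΔE9-10.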

How the data were processed

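The authors prepared QuantSeq 3′ libraries from sorted KL cells, removed low-quality reads, trimmed them with cutadapt, aligned them to mm10 by HISAT2 and obtained counts by featureCounts (Subread 1.5.0-p3). The table they deposited holds raw counts, with a summed exon length per gene beside them, and is not normalised. Options for strand and multi-mapping reads are not given in the sources used here. Groups came from the sample titles, and each count column was matched through the sample descriptions. Nothing says whether each library came from 1 mouse, so p-values measure the spread between these libraries. Within a group, chi-square per gene between libraries was 6.01 to 11.6, where 1 is sampling noise.

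Genes were filtered with filterByExpr (minimum count 10, minimum total 15) and scaled by TMM with edgeR 4.0.16. Genotype was tested on voom values with limma 3.58.1, the tool that the methods of the study name, in R 4.3.3, with Benjamini-Hochberg adjustment over all 11766 genes and two-sided tests. Alternatives were edgeR's quasi-likelihood test, DESeq2 1.42.0, other scalings and filters, sample weights, depth, GC content of the last 300 transcript bases (lowess span 0.3, GENCODE M21), leaving out each library and a replicate block. The procedure was tested on simulated counts. All members were named, with Hoxa9, up to 6 genes past the threshold from each other list and, for each called member, the 3 genes nearest in pattern (no predicted genes, pseudogenes or Riken clones). Gata2, Hoxb3, Hoxb4, Pknox2, Gpsm3, 5430405H02Rik, Mpo, Camp, Mmp8, Retnlg, Ly6a, Hlf and genes with no count were named outside this rule, after their values were seen. The members and lists were chosen with earlier results of these data known. A result on 1 other gene is not reported here.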

Additional observations from a re-analysis of the deposited data

How the results depend on the processing

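Over all genes, the count called stayed within 1.5 times 1189 under the settings with all libraries. It ran from 558 to 1200 when 1 library was left out, with 558 without BcorWT replicate 1, 723 without BcorΔE9-10 replicate 3 and 774 without BcorΔE9-10 replicate 2 (with 1 BcorWT library left, that library is assumed to vary like the others). Of the 7 tested members 2 were called, and 1 was called with the DESeq2 test, total counts alone, no filter, counts drawn down, the replicate block, and GC correction with the replicate block. Without 1 library the count ran from 0 to 2. The counts without 1 library were 1 to 3 for Hox genes (3 with all libraries) and 1 in each fit for cofactors (2 with all libraries). The cause was not tested.

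With total counts alone the median over all genes moved from 0.0043 to 0.15 (log2), with 1210 genes higher and 197 lower against 708 and 481. Of 109 comparisons of single members with an alternative, 93 were unchanged in direction and call, 11 lost a call and 5 changed direction. All 5 concerned genes that were not called. Tgif1 was at 0.077 with total counts alone, 0.075 with the replicate block, 0.14 with counts drawn down and 0.059 without BcorΔE9-10 replicate 1, and Pbx4 was at -0.36 without BcorWT replicate 1. Over the fits without 1 library Tgif1 ran from -0.254 to 0.0588 and Pbx4 from -0.356 to 0.839. Pbx3 ran from -1.92 to -1.49 with all libraries. Pbx4 was not tested with at least 10 counts in every library, with counts drawn down or without BcorΔE9-10 replicate 1 or 2.

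Replicate numbers are shared by 2 pairs, and across genes the deviations of each pair had correlations of 0.0573 and 0.0667. The deviations of the 2 BcorWT libraries mirror each other, so these correlations are not separate checks. They cannot show whether the numbers pair libraries. The replicate block called 1454 genes, among them 1087 of the 1189. Pbx3 was then at -1.49 (limma adjusted p = 0.0303) and Tgif2 at -1.12 (limma adjusted p = 0.114). The values of Pbx3, Pbx4, Meis1, Tgif1 and Tgif2 rest on 4 to 52 counts in a library. With counts drawn down Pbx3 was still called (limma adjusted p = 0.0108) and Tgif2 was not (0.0521).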
